A study of Homo sapiens with 21 samples.

Results

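BEAS-2B cells that ectopically expressed APE1 without its N-terminal segment (NΔ42) were compared with BEAS-2B cells that expressed wild type (WT) APE1. The comparison took 6 of the 21 arrays of the series, 3 per construct, chosen by their titles, and covered the 19775 genes to which the platform annotation gives a probe set with 1 symbol. BEAS-2B is an immortalized line of human bronchial epithelium. Cells were transiently transfected with a cationic lipid (Lipofectamine) and lysed for RNA after 48 hrs. The truncated construct lacked the first 42 amino acids, and according to the labels it was carried, like the WT and RR constructs, in pcDNA3. The methods also describe FLAG-tagged WT and RR proteins in a pCMV plasmid, so which plasmid and tag the WT and RR arrays had is not settled, and a difference in plasmid or tag cannot be told apart from the difference in construct. A further 3 arrays held cells with the K6R/K7R (RR) protein, in which both lysines are replaced by arginine. They entered the fit and their values are given beside those of NΔ42. Every group kept its endogenous APE1, and no group without a construct or with an empty vector was analysed here, so all differences are relative to added WT APE1. The share of cells that took up a construct was not read by the arrays, and each array holds transfected and untransfected cells together.

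APE1, encoded by APEX1, is the main human endonuclease for abasic sites and cuts the DNA backbone at a lost base during base excision repair. It also acts as a redox and coregulatory partner of transcription factors such as AP-1, NF-kB and HIF-1. The N-terminal segment is disordered, lies outside the nuclease domain and carries the lysines that are acetylated, and the question of the comparison is which transcripts differ when that segment is missing.

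RNA was measured on Affymetrix HG-U133 Plus 2.0 arrays, in which a probe set is a group of short probes for one transcript, and the values are log2 signals after RMA processing. A difference of 1 on this scale is a 2-fold difference. A gene was read at its brightest probe set over the 9 BEAS-2B arrays and called when the limma adjusted p was under 0.05 and the brighter group exceeded the dimmer by at least 25% in linear signal. The replicates are 3 biological replicates per group by the study's methods. Arrays of the same construct correlated over all probe sets with r of 0.998 to 0.999 among NΔ42 arrays, 0.994 to 0.996 among RR arrays and 0.996 to 0.997 among WT arrays. The 3' minus 5' signal of the GAPDH control probe sets, a measure of RNA integrity and of labelling, lay between -0.00829 and 0.0206 on NΔ42 arrays, against 0.0972 to 0.104 on WT arrays, and that of ACTB between 0.355 and 0.381 on NΔ42 arrays, against 0.236 to 0.347 on WT arrays. An exact two-sided permutation test gave p = 0.1 for each, the smallest p that 3 arrays against 3 can give. The part of these offsets in the gene values was not tested.

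NΔ42 cells differed from WT cells at 3518 genes, 17.8% of those tested. Of these, 2034 genes (10.3%) were higher in NΔ42 cells and 1484 (7.5%) were lower. Most differences were small: 1356 of the higher and 978 of the lower genes differed by 1.5-fold or less. At least 2-fold differences were counted at 115 higher genes (0.582%) and 145 lower genes (0.733%), and over 4-fold differences at 3 higher and 15 lower genes. The 3 NΔ42 values lay wholly above or below the 3 WT values at 8730 genes (44.1%), and 8 called genes had overlapping groups. The median difference over all genes was -0.00382.

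**Figure D1:**
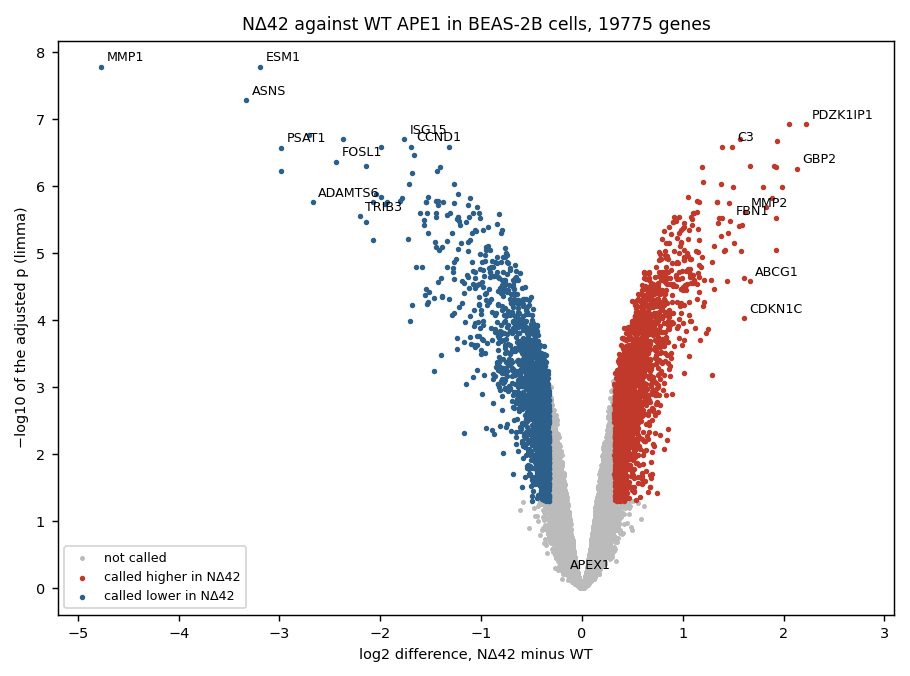
Each point is 1 of 19775 genes, with the log2 difference of NΔ42 minus WT on the horizontal axis and -log10 of the limma adjusted p on the vertical axis. Genes called higher in NΔ42 cells (2034) are red, genes called lower (1484) are blue and genes not called are grey, with MMP1 at -4.77 farthest from 0 and APEX1 among the grey points.

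The endonuclease gene itself was measured first. APEX1 (210027_s_at) had log2 values of 10.39, 10.57 and 10.50 on the NΔ42 arrays, 10.61, 10.67 and 10.68 on the RR arrays and 10.85, 11.02 and 10.09 on the WT arrays. The NΔ42 values lay inside the range of the WT values, whose replicate 3 was the lowest of the 9 arrays. The difference of -0.17 ± 0.19 (SE) was not called (adjusted p = 0.612). Without WT replicate 3 it was -0.45 and was called lower (adjusted p = 0.00428). The probe set reads the endogenous transcript and, where its probes match, the transcripts of the constructs, which it cannot tell apart, so it does not check the truncation.

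Among the genes that act with APE1 in base excision repair, 5 of 21 measured members were higher, 1 was lower and the median difference was -0.0037. Over all genes 10.3% were called higher and 7.5% lower. The scaffold protein gene XRCC1, whose product holds the repair complex together, showed 8.27, 8.05 and 8.02 in NΔ42 cells against 7.50, 7.43 and 7.35 in WT cells, a difference of 0.69 (adjusted p = 1.21e-04). LIG1, a DNA ligase, was higher by 0.41. The glycosylase genes UNG, MBD4 and MPG, whose products cut out damaged or misplaced bases, were higher by 0.33, 0.33 and 0.35. These lay near the 25% minimum, and each of their calls was lost without at least 1 of the 6 arrays. POLB, the gap-filling polymerase, was lower (-0.37, adjusted p = 4.84e-04), though its other probe sets were not called. OGG1, which removes oxidized guanine, and NTHL1 were not called, at 0.00 and -0.07.

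The largest fall of all genes was that of MMP1 (204475_at), the interstitial collagenase. It measured 4.32, 4.33 and 4.35 in NΔ42 cells, 4.32, 4.37 and 4.28 in RR cells and 8.80, 9.18 and 9.34 in WT cells. The NΔ42 and RR arrays formed 1 narrow cluster far below every WT array, and the difference from WT was -4.77 ± 0.11, or 27.3-fold (adjusted p = 1.66e-08). The deposited values carry no detection call, so whether MMP1 was detectable at all in NΔ42 cells is not known. ESM1, a secreted proteoglycan of the vessel wall, showed a similar gap, with 4.58, 4.72 and 4.65 in NΔ42 cells and 7.77, 7.78 and 7.98 in WT cells (-3.19, 9.16-fold, adjusted p = 1.66e-08). ADAMTS6, a secreted metalloproteinase, was at 5.80, 5.95 and 6.26 in NΔ42 cells against 8.80, 8.39 and 8.83 in WT cells (-2.67, adjusted p = 1.73e-06).

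Other genes among the 15 largest falls encode cell surface and signalling proteins. RGS4, which shortens G protein signalling, fell by 2.37 on the log2 scale to a mean of 8.38 in NΔ42 cells, against 10.75 in WT cells. F3, the tissue factor that starts blood clotting, measured 8.70, 8.55 and 8.91 in NΔ42 cells and 10.83, 10.73 and 10.73 in WT cells (-2.05, adjusted p = 1.30e-06). NT5E, the ecto-enzyme that makes adenosine, differed by -2.07 and KLF4, a transcription factor of epithelia, by -2.14. LINC00973, a long noncoding RNA, was at 4.06, 4.30 and 4.30 in NΔ42 cells against 6.94, 7.06 and 6.77 in WT cells (-2.70). The 15 were picked among called genes whose 3 NΔ42 values all lay below the 3 WT values, so the lack of overlap follows from the selection. The others of the 15 are described with their groups below.

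**Figure D2:**
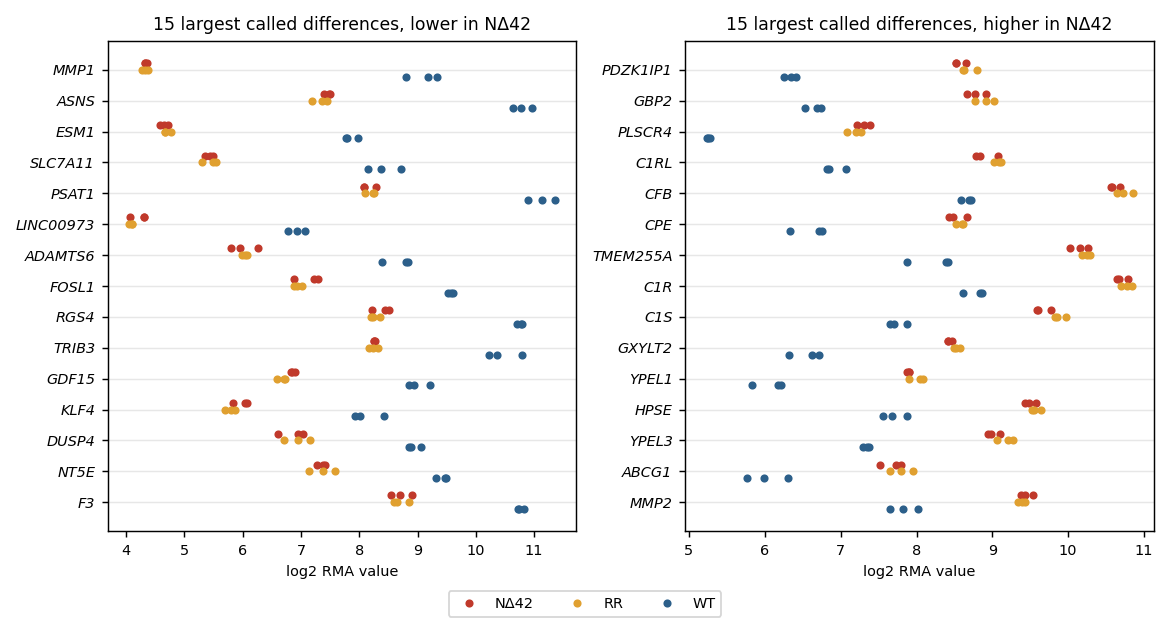
Log2 RMA values of single arrays (points, 3 per construct) for the 15 genes with the largest called falls and the 15 with the largest called rises of NΔ42 against WT. NΔ42 is red, RR orange and WT blue, and in every gene the NΔ42 and RR points lie together and apart from the WT points, from MMP1 (-4.77) to PDZK1IP1 (2.23). Genes were picked so that NΔ42 and WT points did not overlap.

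The 15 largest rises began with PDZK1IP1 (219630_at), a small membrane protein of epithelial cells, which measured 8.65, 8.52 and 8.52 in NΔ42 cells against 6.35, 6.41 and 6.26 in WT cells (2.23 ± 0.07, 4.68-fold, adjusted p = 1.19e-07). PLSCR4, a phospholipid scramblase family member, was at 7.38, 7.22 and 7.31 in NΔ42 cells and 5.25, 5.23 and 5.27 in WT cells (2.05, adjusted p = 1.18e-07). Its WT values lay close together and far below every NΔ42 value. CPE, an enzyme that trims prohormones, rose by 1.93, and HPSE, the heparanase that cleaves heparan sulfate in the matrix, by 1.79. ABCG1, a cholesterol exporter, differed by 1.67 (adjusted p = 2.62e-05), but its other 3 probe sets were not called. GXYLT2, a glycosyltransferase of the Notch receptor sugar chain, differed by 1.88 and TMEM255A by 1.93. YPEL1 and YPEL3, members of the Yippee family, differed by 1.82 and 1.67. The rises of YPEL1 and YPEL3 were called at each of their other probe sets too. Complement genes, GBP2 and MMP2 made up the rest of the 15.

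Gene groups differed widely in how many members were called. The groups were listed with earlier results of these data known, so their shares describe the lists and test nothing. The amino acid response, the tRNA synthetases, the ERK feedback genes and the interferon effectors had mostly lower members. Collagens had mostly higher members. The members called in complement, MHC class I and DNA replication were nearly all higher, with 9 of 17 complement genes higher and 1 lower, 8 of 16 MHC class I genes higher and 0 lower, and 15 of 34 replication genes higher and 0 lower. Over all genes 10.3% were called higher and 7.5% lower, and each count below is set against those shares. Over all genes 17.8% were called in either direction. The ribosomal proteins (1 of 15 higher, 0 lower) and the respiratory chain subunits (1 of 26 higher, 0 lower) had smaller shares. Close to the share of all genes were the BCL2 family with caspases and death receptors (3 of 25 higher, 1 lower, 16%). So were the genes of the endoplasmic reticulum stress response (3 of 24 higher, 1 lower, 16.7%) and the housekeeping genes (1 of 12 higher, 1 lower, 16.7%).

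**Figure D3:**
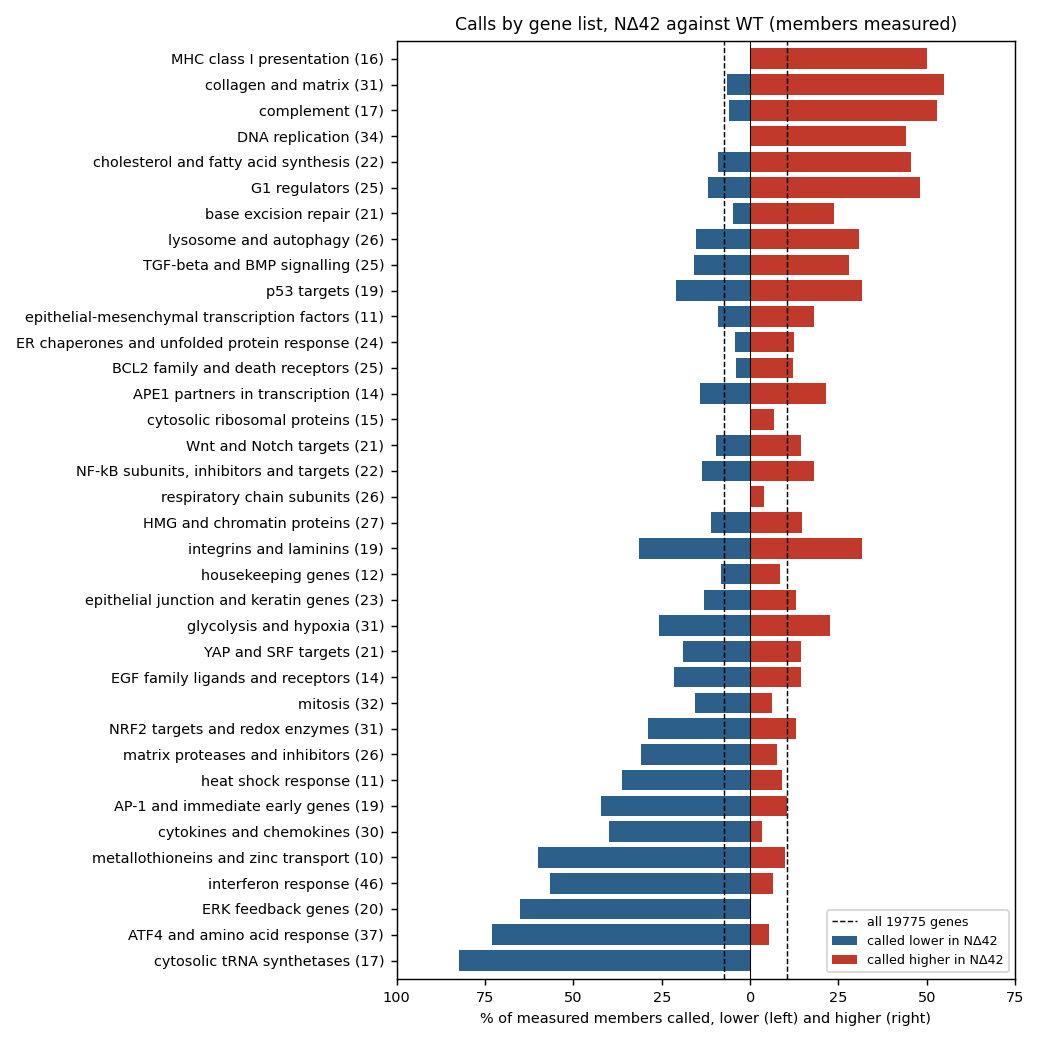
Percent of the measured members of each gene list that were called lower (blue, left) or higher (red, right) in NΔ42 cells than in WT cells, with the number of measured members in parentheses and the lists ordered by the higher minus the lower share. Dashed lines mark the shares over all 19775 genes, 7.5% lower and 10.3% higher. The lists were written with earlier results of these data known. The cytosolic tRNA synthetases, with 14 of 17 lower, stand at the bottom and the MHC class I genes, with 8 of 16 higher, at the top.

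Genes of the amino acid response were mostly lower in NΔ42 cells. ATF4 is the transcription factor that cells translate when amino acids run short or the endoplasmic reticulum is stressed, and it switches on enzymes, transporters and stress regulators. Of 37 measured members 27 were lower and 2 higher, with a median of -0.66, and 13 were lower by at least 2-fold. ATF4 itself measured 10.50, 10.50 and 10.55 in NΔ42 cells against 11.29, 11.45 and 11.54 in WT cells (-0.91 ± 0.07, adjusted p = 1.89e-05). Its dimer partner CEBPG differed by -1.21 and DDIT3, which encodes the stress factor CHOP, by -1.45. ATF3 and CEBPB were lower by less, with differences of -0.55 and -0.41, while ATF5 (0.31) was not called.

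Of 10 enzymes of the response 7 were lower and 1 higher, with a median of -0.62, and ASNS had the largest difference of the group. ASNS (205047_s_at), the asparagine synthetase, was at 7.50, 7.40 and 7.49 in NΔ42 cells, 7.45, 7.37 and 7.19 in RR cells and 10.64, 10.78 and 10.96 in WT cells. The WT arrays stood more than 3 log2 units above every other array, and the difference was -3.33 ± 0.09, or 10.1-fold (adjusted p = 5.21e-08). Its other probe set was not called. PSAT1, the middle enzyme of serine synthesis, measured 8.08, 8.08 and 8.28 in NΔ42 cells against 11.14, 10.89 and 11.36 in WT cells (-2.99, 7.92-fold, adjusted p = 2.68e-07). PHGDH, which starts serine synthesis, differed by -0.73 (adjusted p = 1.17e-04), and PSPH, which completes it, was higher at the probe set read (0.48, adjusted p = 0.00476). Another probe set of PSPH was called lower, at -0.69, so this member has no settled direction. SHMT2 and MTHFD2 of mitochondrial one-carbon metabolism were lower, at -0.54 and -0.43, and PYCR1 of proline synthesis was not called (-0.07).

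The promoter of ASNS is shown because it holds a C/EBP-ATF response element, the kind of site that ATF4 dimers bind. The letters searched were TGATGNAA on both strands, and capitals mark the match, which starts at position -68 counted from the annotated gene start at 0. The sequence is RefSeq's, build GRCh38.p14, minus strand, chr7:97872359-97872658.
ASNS: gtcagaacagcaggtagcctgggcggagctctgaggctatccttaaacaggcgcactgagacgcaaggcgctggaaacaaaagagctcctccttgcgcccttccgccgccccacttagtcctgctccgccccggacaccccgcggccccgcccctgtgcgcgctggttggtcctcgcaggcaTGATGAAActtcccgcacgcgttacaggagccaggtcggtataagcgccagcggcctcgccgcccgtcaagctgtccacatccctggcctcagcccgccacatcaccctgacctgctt
Of the 37 members 30 had a promoter sequence in the table used, and 6 of these (20%) held the motif, against 3.67% of all 27305 promoters of the same length. Promoters of all genes called lower held it in 3.11%. The 4 other called members with a match were SLC3A2, SLC7A1, CHAC1 and ATF3, and the match in FGF21 belonged to a gene that was not called (0.10). A match is a description of letters and not of binding.

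Amino acid transporters and stress effectors were lower in the same comparison. SLC7A11, the cystine importer, was at 5.49, 5.36 and 5.44 in NΔ42 cells and 8.38, 8.15 and 8.72 in WT cells (-2.99, 7.92-fold, adjusted p = 6.01e-07), and its heavy chain partner SLC3A2 differed by -1.04. SLC7A5, the large neutral amino acid carrier, was lower (adjusted p = 8.15e-05), and the arginine carrier SLC7A1 differed by -0.62. Of 9 transporters 7 were lower and 1, SLC43A1, was higher (0.33), a call that was lost without NΔ42 replicate 3 or WT replicate 2. TRIB3, a pseudokinase that feeds back on ATF4, measured 8.27, 8.26 and 8.26 in NΔ42 cells against 10.23, 10.37 and 10.80 in WT cells (-2.20, adjusted p = 2.82e-06). GDF15, a secreted stress hormone, measured 6.83, 6.85 and 6.90 in NΔ42 cells against 8.85, 8.95 and 9.21 in WT cells (-2.15, adjusted p = 4.92e-07). STC2, PPP1R15A and DDIT4 were lower, at -1.81, -1.72 and -1.71. PPP1R15A encodes GADD34, which restores translation after stress, and DDIT4 encodes an mTOR inhibitor. Of the 10 effectors 8 were lower, with a median of -1.64.

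All 17 cytosolic tRNA synthetases measured had negative differences, and 14 passed the test. These enzymes charge tRNAs with their amino acids. GARS1 was at 10.37, 10.34 and 10.34 in NΔ42 cells and 11.56, 11.71 and 11.80 in WT cells (-1.34, adjusted p = 2.69e-06). YARS1, WARS1 and TARS1 differed by -1.22, -1.13 and -1.01. The 3 that were not called were HARS1 (-0.28), FARSA (-0.24) and KARS1 (-0.10). The C/EBP-ATF letters stood in 5 of 14 synthetase promoters (35.7%), those of AARS1, CARS1, IARS1, NARS1 and TARS1, all of which were called lower. Since 14 of 17 synthetases were called lower, these calls do not set the 5 apart. GARS1 and WARS1 fell further than any of the 5, and their promoters did not hold the letters. Of 15 chaperones and folding enzymes of the endoplasmic reticulum, targets of the other branches of the unfolded protein response, 1 was higher and 0 lower, with a median of 0.18. Of 9 sensors and degradation genes of that response 2 were higher and 1 lower. Without WT replicate 2, 7 of these 24 genes were higher, against 3 with all arrays. HSPA5, the chaperone BiP, had 11.71, 11.69 and 11.64 in NΔ42 cells and 11.93, 11.91 and 11.98 in WT cells, and its difference of -0.26 was under the 25% minimum although the groups did not overlap.

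**Figure D4:**
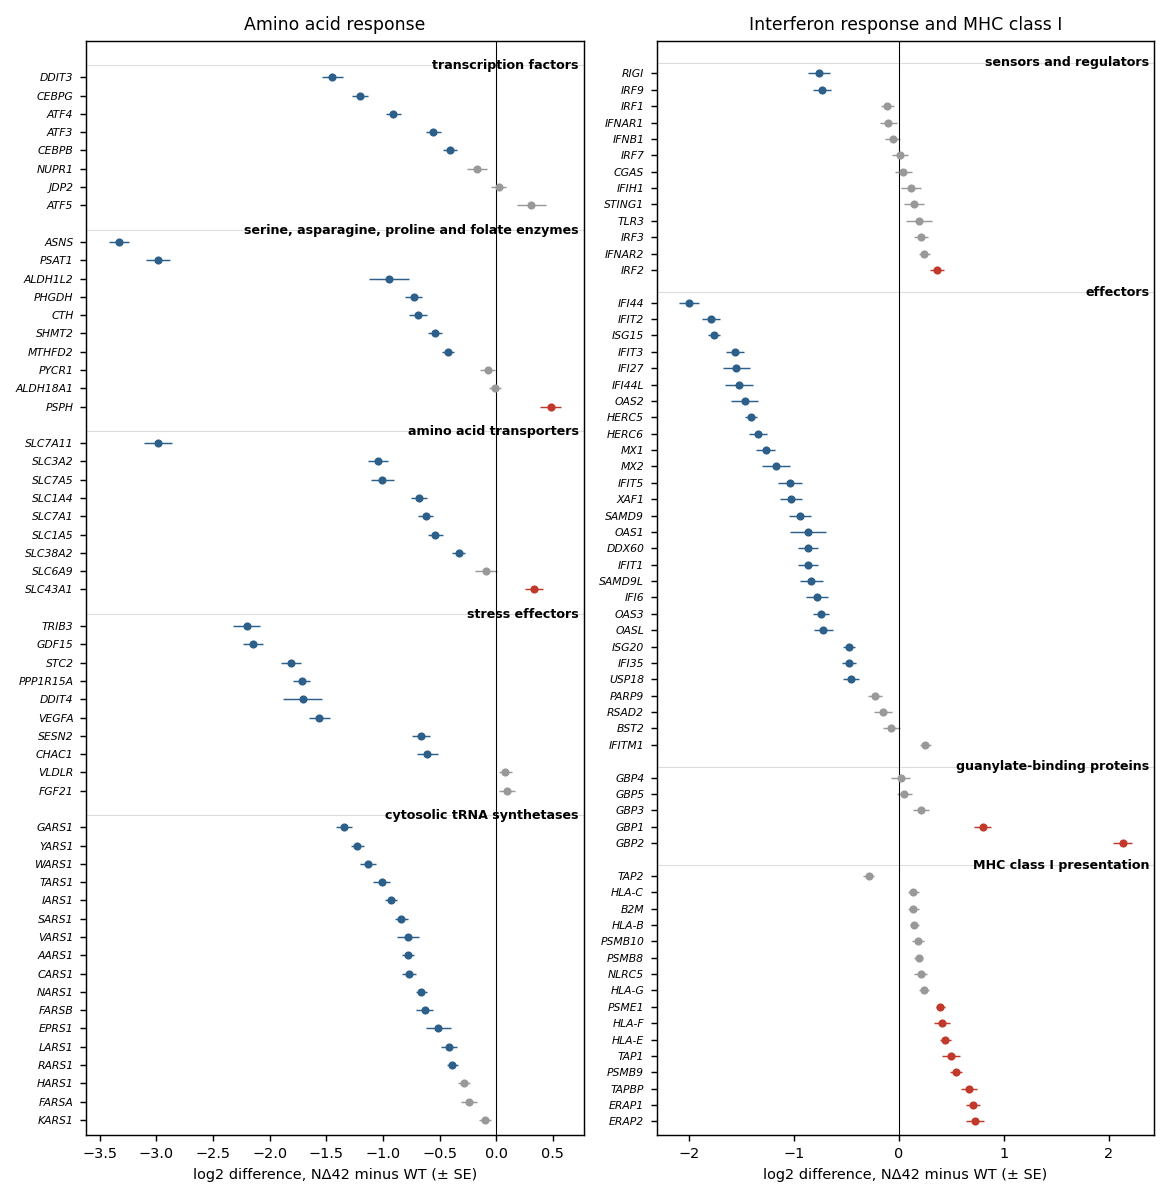
Log2 difference of NΔ42 minus WT (point) with its SE (bar) for members of the amino acid response and the cytosolic tRNA synthetases (left) and of the interferon response and MHC class I presentation (right). Blue members were called lower, red higher and grey were not called. ASNS (-3.33), SLC7A11 (-2.99) and PSAT1 (-2.99) lie farthest left. Of 28 interferon effectors 24 were lower and 0 higher. Of 5 guanylate-binding proteins GBP1 and GBP2 were higher, and the others were not called and overlap the highest effectors.

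Interferon-stimulated genes split by kind. Type I interferon acts through STAT and IRF9 to raise antiviral effectors, whereas guanylate-binding proteins and MHC class I genes respond strongly to interferon gamma. Of 28 effectors 24 were lower and 0 higher, with a median of -0.91. Of 5 guanylate-binding proteins 2 were higher and 0 lower, and of 16 MHC class I presentation genes 8 were higher and 0 lower, with a median of 0.32. IFI44 (214453_s_at), an effector of type I interferon, was at 6.12, 6.11 and 6.38 in NΔ42 cells and 8.12, 8.12 and 8.36 in WT cells (-2.00 ± 0.09, adjusted p = 1.45e-06). ISG15, a ubiquitin-like modifier, measured 8.70, 8.59 and 8.61 in NΔ42 cells, 8.91, 8.86 and 8.89 in RR cells and 10.30, 10.42 and 10.48 in WT cells (-1.76, adjusted p = 1.98e-07). IFIT2 and IFIT3, which bind viral RNA, differed by -1.79 and -1.56, and MX1, an antiviral GTPase, by -1.27. RSAD2 (-0.15) and BST2 (-0.07) were among the 4 effectors that were not called.

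Upstream genes moved less. IRF9, the DNA-binding subunit of the type I interferon complex, was lower (-0.74, adjusted p = 2.27e-04), as was the RNA sensor RIGI (-0.76). IRF2 was higher (0.36, adjusted p = 0.00399), except without WT replicate 3, and IFNB1, IRF1 and IRF7 were not called, with differences of -0.06, -0.11 and 0.01. GBP2 (202748_at), a GTPase against intracellular pathogens, had the second largest rise of the genes with 1 symbol. It measured 8.91, 8.77 and 8.66 in NΔ42 cells and 6.74, 6.53 and 6.68 in WT cells (2.13, 4.38-fold, adjusted p = 5.47e-07). GBP1 differed by 0.80, and GBP3, GBP4 and GBP5 were not called. Among antigen presentation genes ERAP1 and ERAP2, which trim peptides, rose by 0.71 and 0.72. TAPBP, which loads peptides, and the immunoproteasome subunit PSMB9 rose by 0.67 and 0.55. The heavy chain gene HLA-B (0.15) and the light chain gene B2M (0.14) were not called.

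The promoters of IFI44 and ISG15, lower in NΔ42 cells, and of ERAP1, higher there, are shown side by side because each holds the core of an interferon-stimulated response element. The letters searched were GAAANNGAA on both strands, and capitals mark them. The match of IFI44 starts at -17, those of ISG15 overlap one another and start at -113, -107 and -101, and that of ERAP1 starts at 3. The windows are IFI44 chr1:78649539-78649838 (plus strand), ISG15 chr1:1013247-1013546 (plus strand) and ERAP1 chr5:96807896-96808195 (minus strand), from RefSeq, GRCh38.p14.
IFI44: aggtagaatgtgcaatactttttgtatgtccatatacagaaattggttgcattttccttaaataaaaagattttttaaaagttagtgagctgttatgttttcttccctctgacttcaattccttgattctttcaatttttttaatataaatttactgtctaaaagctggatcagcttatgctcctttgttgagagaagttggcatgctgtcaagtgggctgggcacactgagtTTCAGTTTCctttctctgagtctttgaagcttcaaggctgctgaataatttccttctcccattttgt
ISG15: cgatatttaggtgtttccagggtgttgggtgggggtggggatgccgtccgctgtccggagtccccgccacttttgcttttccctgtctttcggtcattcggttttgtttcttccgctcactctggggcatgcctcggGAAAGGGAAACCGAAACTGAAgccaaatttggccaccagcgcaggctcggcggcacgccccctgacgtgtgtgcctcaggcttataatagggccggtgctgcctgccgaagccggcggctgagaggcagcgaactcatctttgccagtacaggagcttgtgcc
ERAP1: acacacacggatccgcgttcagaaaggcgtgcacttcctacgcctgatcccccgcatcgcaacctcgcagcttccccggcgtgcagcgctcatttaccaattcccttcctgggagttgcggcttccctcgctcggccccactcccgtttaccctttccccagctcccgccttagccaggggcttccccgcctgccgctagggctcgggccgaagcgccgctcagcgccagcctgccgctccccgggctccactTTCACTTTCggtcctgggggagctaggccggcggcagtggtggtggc
The motif was found in 22 of 33 interferon response promoters (66.7%) and in 8 of 14 MHC class I promoters (57.1%), against 8.29% of all 27305 promoters. Of the 22 interferon response genes with the letters 14 were lower and 1 higher, and of the 8 MHC class I genes 0 were lower and 5 higher.

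Complement genes were called higher more often than lower. Complement is a cascade of secreted proteases that marks and lyses microbes, and airway epithelium makes several of its components. Of 17 members measured 9 were higher and 1 lower, with a median of 0.37. C1R, a protease of the initiating complex, was at 10.79, 10.67 and 10.64 in NΔ42 cells, against 8.84, 8.87 and 8.61 in WT cells (1.93 ± 0.08, adjusted p = 5.12e-07). Its partner C1S was at 9.77, 9.60 and 9.58 in NΔ42 cells, against 7.71, 7.87 and 7.65 in WT cells (1.91 ± 0.08, adjusted p = 4.92e-07). The related gene C1RL differed by 1.99. CFB, factor B of the alternative pathway, measured 10.68, 10.57 and 10.56 in NΔ42 cells against 8.72, 8.69 and 8.59 in WT cells (1.94, adjusted p = 2.14e-07), and C3, the central component, was higher by 1.49 (adjusted p = 2.56e-07). Of the regulators, CLU (1.20) was higher, CD46 was higher at 1 of its probe sets (0.50), CD55 was lower (-0.55) and CD59 was not called (-0.03).

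Inflammatory cytokines had mostly lower calls. Of 30 members 12 were lower and 1 higher, and 8 were lower by at least 2-fold. IL6 was at 8.11, 8.19 and 8.37 in NΔ42 cells and 9.54, 9.71 and 9.80 in WT cells (-1.46, adjusted p = 6.81e-06). Its relatives IL11 and LIF differed by -1.43 and -0.90, and IL1A and IL1B by -1.28 and -0.80. The neutrophil chemokine CXCL8 measured 11.30, 11.32 and 11.63 in NΔ42 cells against 12.84, 12.71 and 12.87 in WT cells (-1.39, adjusted p = 7.99e-06), and its other probe set gave a larger difference of -2.81. CXCL1, CXCL2 and CXCL3 were lower, at -1.33, -1.25 and -1.58. CXCL6, of the same family, was the 1 member that was higher (0.80, adjusted p = 4.23e-04).

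The promoters of IL11 and CXCL8 are shown as the members with the largest falls whose windows hold the AP-1 letters TGANTCA, searched on both strands and capitalized. The matches start at -96 in IL11 and at -137 in CXCL8. The windows are IL11 chr19:55370414-55370713 (minus strand) and CXCL8 chr4:73740319-73740618 (plus strand), from RefSeq, GRCh38.p14.
IL11: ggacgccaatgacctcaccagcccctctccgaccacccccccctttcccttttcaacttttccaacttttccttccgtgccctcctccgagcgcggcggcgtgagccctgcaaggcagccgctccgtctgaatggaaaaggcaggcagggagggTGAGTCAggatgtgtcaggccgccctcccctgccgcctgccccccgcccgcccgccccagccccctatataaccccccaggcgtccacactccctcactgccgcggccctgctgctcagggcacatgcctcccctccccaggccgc
CXCL8: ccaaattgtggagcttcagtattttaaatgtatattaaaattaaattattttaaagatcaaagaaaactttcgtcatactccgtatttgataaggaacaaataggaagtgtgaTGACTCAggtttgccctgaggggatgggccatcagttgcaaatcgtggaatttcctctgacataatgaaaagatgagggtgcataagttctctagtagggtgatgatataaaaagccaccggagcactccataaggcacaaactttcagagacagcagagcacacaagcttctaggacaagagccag
These letters were found in 8 of 24 cytokine promoters (33.3%), of which IL11, CXCL8 and IL1A were called, and in 7.76% of all promoters. They stood in 5.84% of the promoters of all genes measured, in 6.38% of those of genes called lower and in 3.94% of those of genes called higher. Among genes lower by at least 2-fold they stood in 11 of 112 promoters (9.82%), and among genes higher by at least 2-fold in 4 of 87 (4.60%).

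NF-kB genes did not share a direction, with 4 of 22 members higher and 3 lower. The subunit genes REL and NFKB2 were higher (0.81 and 0.64), RELA (0.00) and NFKB1 (-0.05) were not called, and the inhibitor genes NFKBIA (-0.33) and NFKBIZ (-0.62) were lower. The call of NFKBIA, close to the 25% minimum, was lost without NΔ42 replicate 1, NΔ42 replicate 2 or WT replicate 2. SOD2, the mitochondrial superoxide dismutase and a known NF-kB target, measured 10.05, 9.98 and 9.96 in NΔ42 cells against 8.97, 8.94 and 8.39 in WT cells (1.23, adjusted p = 1.56e-04).

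AP-1 is a dimer of Fos and Jun family proteins, and its subunit genes were called in both directions. Of 9 subunit genes 5 were lower and 1 higher. FOSL1 (204420_at), which encodes FRA1, was at 6.89, 7.22 and 7.29 in NΔ42 cells, 6.93, 6.88 and 7.02 in RR cells and 9.53, 9.61 and 9.58 in WT cells (-2.44 ± 0.09, 5.43-fold, adjusted p = 4.28e-07). JUN and FOSL2 differed by -0.64 and -0.49, while FOS (-0.01) and JUND (-0.01) were not called. JUNB was higher, with 7.58, 7.73 and 7.62 in NΔ42 cells and 6.44, 6.53 and 6.54 in WT cells (1.14, adjusted p = 2.46e-06). Of other immediate early genes EGR1 was higher (1.10, adjusted p = 2.49e-06), MYC (-0.89) and IER3 (-0.99) were lower and SRF (0.03) was not called.

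Genes that report on ERK signalling, the kinase cascade below growth factor receptors, were mostly lower. Of 20 members 13 were lower and 0 higher, with a median of -0.58. The ERK phosphatase genes DUSP4 and DUSP5 differed by -2.07 and -1.08. DUSP4 measured 6.94, 6.60 and 7.04 in NΔ42 cells against 8.86, 8.89 and 9.06 in WT cells (adjusted p = 6.35e-06). The inhibitors SPRY2 and SPRY4 were lower too (-0.64 and -0.75). DUSP6 was also lower (-0.51, adjusted p = 0.03), a call that was lost without any one of the 6 arrays except WT replicate 2. ETV5, a transcription factor that ERK induces, was at 7.11, 7.26 and 7.23 in NΔ42 cells and 8.37, 8.53 and 8.51 in WT cells (-1.27, adjusted p = 1.76e-06). PHLDA1 differed by -1.72 and the receptor gene EPHA2 by -0.80. Of the EGF family, the ligand genes HBEGF (-1.23, adjusted p = 2.89e-06) and TGFA (-1.15, adjusted p = 3.41e-06) were lower, and the receptor gene ERBB3 was higher (1.16, adjusted p = 1.73e-06). EGFR had 8.73, 8.76 and 8.88 in NΔ42 cells and 8.95, 9.09 and 8.85 in WT cells and was not called (-0.17).

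Cell cycle genes gave different counts by phase. Of 34 DNA replication genes 15 were higher and 0 lower, with a median of 0.30. CDT1, which licenses origins, rose by 1.03, MCM6 of the replicative helicase by 0.73 and the thymidine kinase TK1 by 0.83. TK1 measured 11.02, 10.98 and 11.01 in NΔ42 cells against 10.16, 10.26 and 10.10 in WT cells (adjusted p = 2.38e-05). PCNA, the sliding clamp, had a difference of 0.31, just under the 25% minimum. Of 32 mitotic genes 2 were higher and 5 lower, and without WT replicate 2 or without NΔ42 replicate 2, 5 were higher. CDK1 was higher (0.46), CDC20 (-0.63) and CCNB1 (-0.46) were lower and MKI67 was not called (-0.02).

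Of 25 G1 regulators 12 were higher and 3 lower. CCND1, the cyclin that growth factors induce, was at 5.77, 5.84 and 5.79 in NΔ42 cells, a mean of 6.03 in RR cells and 7.37, 7.54 and 7.57 in WT cells (-1.69 ± 0.06, adjusted p = 2.56e-07), and its other probe set gave -3.27. CDK6 was lower (-0.54), CCNE2 at the probe set read and CDK2 were higher (0.75 and 0.42) and CDK4 was not called (0.05). CDKN1C, the kinase inhibitor p57, measured 8.15, 8.12 and 7.98 in NΔ42 cells against 6.75, 6.68 and 6.01 in WT cells (1.61, adjusted p = 9.38e-05), with WT replicate 3 lowest. The inhibitor genes CDKN1B and CDKN2B rose by 0.67 and 0.89, and CDKN1A fell by 0.51 on the log2 scale.

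**Figure D5:**
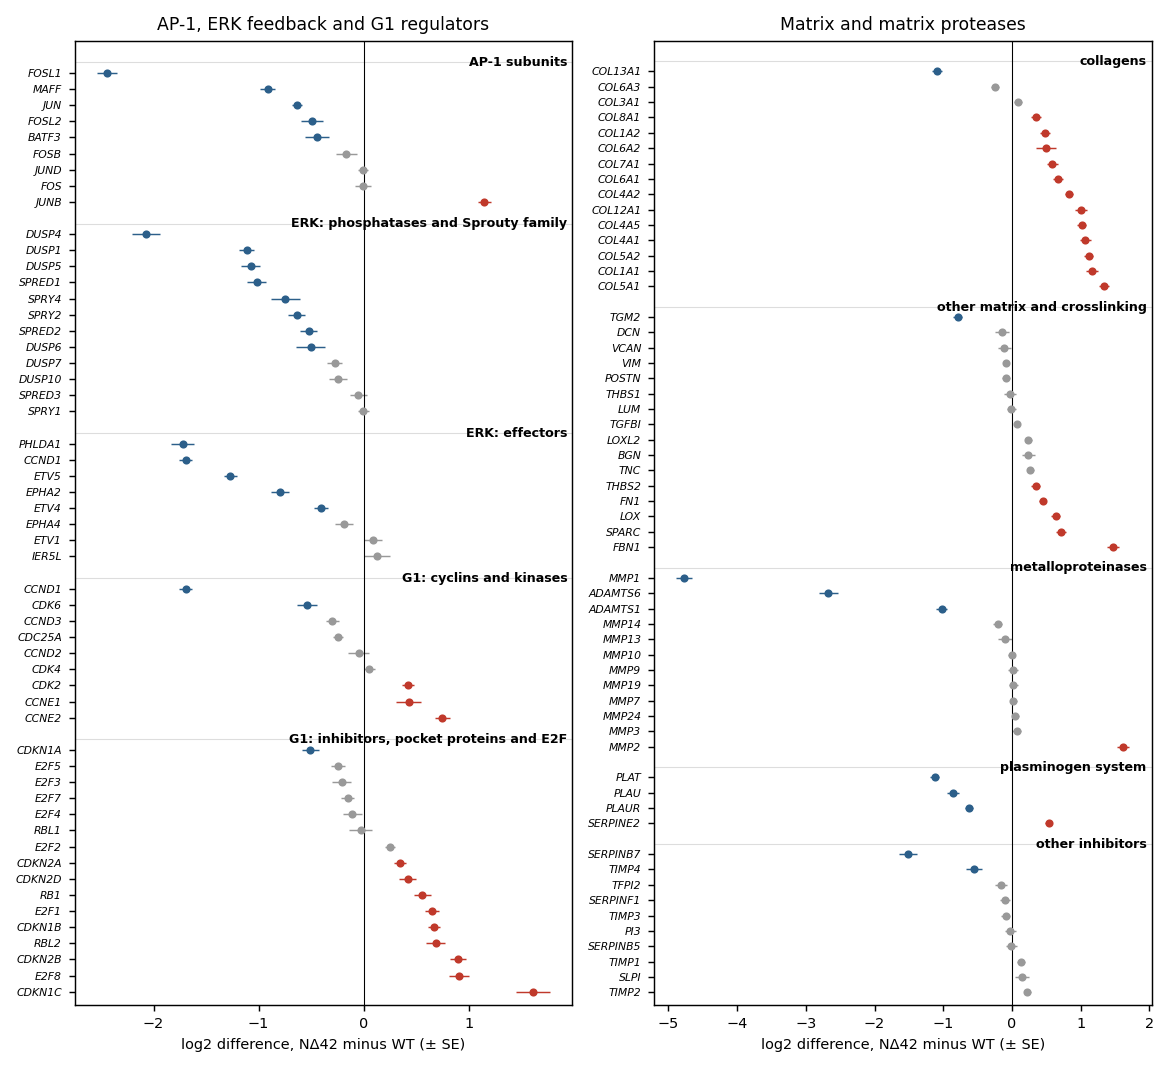
Log2 difference of NΔ42 minus WT (point) with its SE (bar) for AP-1 subunits, ERK feedback genes and G1 regulators (left) and for matrix genes, metalloproteinases, the plasminogen system and protease inhibitors (right). Blue members were called lower, red higher and grey were not called, with FOSL1 (-2.44), CCND1 (-1.69) and MMP1 (-4.77) to the left and FBN1 (1.47) and MMP2 (1.62) to the right.

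Matrix genes had mostly higher calls and matrix proteases and their inhibitors mostly lower ones. Of 15 collagens 12 were higher and 1 lower, with a median of 0.67. COL5A1 was at 10.42, 10.40 and 10.37 in NΔ42 cells and 9.08, 9.17 and 8.91 in WT cells (1.34, adjusted p = 1.73e-06). COL1A1, a chain of type I collagen, measured 12.98, 12.92 and 12.96 in NΔ42 cells against 12.01, 11.67 and 11.70 in WT cells (1.16, adjusted p = 1.50e-05), and the basement membrane chain COL4A1 differed by 1.07. COL13A1, a membrane-spanning collagen, was lower (-1.09, adjusted p = 1.35e-05) and COL6A3 was not called (-0.25). FBN1, the fibrillin of elastic microfibrils, rose by 1.47 (adjusted p = 3.26e-06), and LOX and SPARC by 0.64 and 0.71. TGM2, which crosslinks matrix proteins, was lower (-0.79). Of 8 fibroblast markers COL1A1, COL1A2 and PDGFRB were higher and 0 were lower, and the mean log2 level of the 8 was 7.37 to 7.39 on NΔ42 arrays against 7.04 to 7.12 on WT arrays. A different share of cells of a type and a different amount of RNA per cell cannot be told apart in bulk RNA, and the part of the fibroblast markers in the collagen counts was not tested.

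Of 26 proteases and inhibitors 8 were lower and 2 higher. MMP2, a gelatinase, moved against MMP1, with 9.53, 9.43 and 9.38 in NΔ42 cells and 7.82, 7.65 and 8.01 in WT cells (1.62, adjusted p = 2.46e-06), though its other probe sets were not called. The other 8 MMP genes of the list were not called. The plasminogen activator genes PLAT and PLAU and the receptor gene PLAUR were lower, at -1.12, -0.86 and -0.62. The protease inhibitor SERPINB7 was lower (-1.52) and SERPINE2 higher (0.53). Integrins and laminins were split, with 6 of 19 higher and 6 lower. ITGA2, a collagen receptor subunit, differed by -1.53, and ITGA1, another collagen receptor subunit, by 1.36. ITGB4, the laminin receptor subunit of hemidesmosomes, was higher by 1.14.

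Markers of epithelial identity were called in both directions. CDH1, E-cadherin, measured 6.73, 6.66 and 6.43 in NΔ42 cells against 5.76, 5.35 and 5.51 in WT cells (1.07, adjusted p = 3.46e-04), and its other probe set gave 0.01. KRT7, a keratin of simple epithelia, was lower (-1.43, adjusted p = 1.65e-06), and KRT8 (-0.11) and KRT18 (0.00) were not called. Of the transcription factors of epithelial-mesenchymal transition, SNAI2 was lower (-1.43), TWIST1 higher (0.84) and ZEB1 not called (0.08). The mean log2 level of 6 general epithelial markers was 7.96 to 7.99 on NΔ42 arrays and 8.07 to 8.16 on WT arrays. Of 7 ciliated cell markers 0 were called, of 6 airway basal markers S100A2 was lower, except without NΔ42 replicate 1 or WT replicate 3, of 6 secretory cell markers WFDC2 was higher, and of 4 leukocyte markers CD14 was higher. LAMP3 was lower among 5 alveolar type 2 markers and PECAM1 among 6 endothelial markers. Over all genes 17.8% were called in either direction. KRT18 had 11.54, 11.50 and 11.61 in NΔ42 cells and 11.49, 11.57 and 11.58 in WT cells, whereas EPCAM, an adhesion molecule of most epithelia, had 5.53, 5.52 and 5.44 in NΔ42 cells and 5.57, 5.55 and 5.69 in WT cells. Without detection calls the low values of EPCAM, of the basal keratin KRT14 (0.04) and of the club cell marker SCGB1A1 (-0.19) cannot be told from background.

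Metabolic and redox genes were called in both directions. Of 13 genes of cholesterol synthesis and uptake 7 were higher and 0 lower. INSIG1, which restrains sterol synthesis, differed by 1.01 (adjusted p = 1.96e-04), and SCD, the desaturase of fatty acids, measured 9.29, 9.21 and 9.28 in NΔ42 cells against 7.98, 8.15 and 7.78 in WT cells (1.29, adjusted p = 1.33e-05), while the other 3 probe sets of SCD were not called. Of 18 NRF2 targets 7 were lower and 0 higher, SLC7A11 again among them, with SRXN1 (-1.02), TXNRD1 (-0.71) and GCLM (-0.70). HMOX1 differed by -0.48 (adjusted p = 0.00526). Of 10 metallothionein and zinc transport genes 6 were lower, with MT1E at -0.68 and the zinc exporter SLC30A1 at -0.87, and the importer SLC39A10 was higher (0.84). Glycolysis and hypoxia genes were divided, with 7 of 31 higher and 8 lower. VEGFA, the vessel growth factor, was at 7.99, 7.92 and 8.24 in NΔ42 cells and 9.57, 9.59 and 9.69 in WT cells (-1.56, adjusted p = 3.81e-06), the glucose transporter SLC2A1 differed by -0.84 and HIF1A was not called (-0.02). DKK1, a secreted Wnt inhibitor, measured 8.33, 8.42 and 8.61 in NΔ42 cells against 10.46, 10.41 and 10.47 in WT cells (-1.99, adjusted p = 2.56e-07).

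Genes of programmed cell death, stress and signalling had calls on both sides. Among 14 transcription partners of APE1 3 were higher, STAT3 (0.68), ESR1 (0.58) and EGR1, and 2 were lower, JUN and the redox protein gene TXN (-0.36). Of 19 p53 targets 6 were higher and 4 lower. ZMAT3 and CCNG1 rose by 0.63 and 0.62, and GADD45A, a growth arrest gene, was lower (-0.80). Of 25 genes of the BCL2 family, caspases and death receptors 3 were higher and 1 lower. The death-promoting members BCL2L11 (BIM) and BAX were higher (0.61 and 0.43), the survival gene BCL2 was higher at the probe set read (0.38) and lower at another, and PMAIP1 (NOXA), which promotes death, was lower (-0.95, adjusted p = 3.96e-05).

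Lysosome and autophagy genes were higher at 8 of 26 members and lower at 4. GABARAPL1, an adaptor of autophagosomes, rose by 0.70, while SQSTM1, an autophagy receptor, and MAP1LC3B were lower (-0.50 and -0.48). Of 11 heat shock genes 4 were lower, with the chaperone genes HSPH1 at -0.80 and HSPA4 at -0.76, and HSPB1 was higher (0.57). In TGF-beta and BMP signalling 7 of 25 members were higher and 4 lower: the receptor genes TGFBR1 and TGFBR2 differed by 0.76 and -0.56, and the inhibitor gene ID2 rose by 0.83. Of 21 YAP and SRF targets 3 were higher and 4 lower, with ANKRD1 at -0.75, CCN2 at -0.39 and TAGLN, an actin-binding protein of smooth muscle, at 0.44. Wnt and Notch genes gave 3 higher and 2 lower of 21, with the Wnt target AXIN2 at 0.64. Of 27 HMG and chromatin genes 4 were higher and 3 lower, with the deacetylase genes HDAC5 at 0.58 and HDAC9 at -0.62.

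Genes that were also assayed by RT-PCR, relative to HPRT1, were read on the arrays, and of these 11 genes 2 were higher and 4 lower. HMGA1, TGM2, CDKN1B, CDK2, EMP1 and FOSL1 were assayed in BEAS-2B cells with these constructs, and were picked by the study among genes that differed on these arrays, so their direction here is not independent evidence. SFN, RAC1, CCNA2, MACROH2A1 and HDGFL3 were assayed only in A549 cells after APE1 knockdown. HMGA1, a chromatin protein of proliferating cells, was at 8.88, 9.06 and 9.01 in NΔ42 cells and 10.16, 10.17 and 10.30 in WT cells (-1.23, adjusted p = 2.89e-06), and its other probe set gave 0.02. Its relative HMGA2 differed by -1.28 at 1 of 9 probe sets. EMP1, an epithelial membrane protein, was lower (-0.60, adjusted p = 2.27e-04) beside FOSL1 and TGM2. CDK2 and CDKN1B were higher. SFN (0.02), RAC1 (0.10), CCNA2 (0.17), MACROH2A1 (-0.03) and HDGFL3 (0.24) were not called. HPRT1 had 11.48, 11.48 and 11.52 in NΔ42 cells and 11.49, 11.53 and 11.44 in WT cells, with a difference of 0.00. Of 12 housekeeping genes GUSB was higher (0.83), TFRC lower (-0.96) and the other 10 were not called.

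The differences of NΔ42 cells and of RR cells from WT cells use the same 3 WT arrays, so they are given side by side for each gene and nothing is drawn from their likeness. The log2 differences of NΔ42 minus WT were -4.77 for MMP1, -3.33 for ASNS, -2.44 for FOSL1, -2.00 for IFI44, 1.94 for CFB and 1.34 for COL5A1. Those of RR minus WT were -4.78 for MMP1, -3.46 for ASNS, -2.63 for FOSL1, -1.86 for IFI44, 2.07 for CFB and 1.41 for COL5A1. Tested directly, NΔ42 minus RR gave 0 called genes (0%) by limma. At an unadjusted p under 0.05 there were 2484 genes (12.6%) and the smallest adjusted p was 0.0707. The 95% interval of the difference, for 1 gene at a time, had a median half-width of 0.158 and lay within 2-fold in both directions at 19765 of 19775 genes, and within 1.5-fold at 97.7%. For FOSL1 it ran from -0.02 to 0.40, for CCND1 from -0.37 to -0.10 and for ISG15 from -0.38 to -0.12. The intervals of CCND1 and ISG15 lie below 0, and their adjusted p was 0.245 and 0.222. Without RR replicate 3, 451 genes were called, of which 343 were higher and 108 lower in NΔ42 cells, and without any other NΔ42 or RR array 0 were called. At CLECL1, CCDC187 and MUC5AC, the largest differences, the RR arrays stood higher: CCDC187 had 6.07, 5.86 and 5.97 on NΔ42 arrays, 6.99, 6.93 and 6.67 on RR arrays and 5.91, 6.05 and 5.77 on WT arrays (NΔ42 minus RR -0.90, 95% interval -1.12 to -0.68). RR replicates 1 and 3 were also the least alike arrays of one construct, with r of 0.994.

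The calls were read at 1 probe set per gene. Of the 3518 called genes 2303 had other probe sets, which gave a call in the same direction at 935, in the opposite direction at 66, in both directions at 24 and no call at 1278. Of the genes with at least 2-fold differences 185 had other probe sets, with the same direction at 117, the opposite at 0, both at 1 and no call at 67. Of the called genes named here, ABCG1, ASNS, ATF3, AXIN2, BCL2L11, C1RL, CCNE2, CD46, CDH1, CDKN2B, COL13A1, CXCL2, ESR1, GDF15, GUSB, HDAC5, HDAC9, HMGA1, HMGA2, ID2, IL11, IL1A, ITGA2, KLF4, KRT7, MCM6, MMP2, MTHFD2, NFKB2, NFKBIA, PECAM1, POLB, SCD, SERPINE2, SLC2A1, TAPBP, TARS1, TGFA, TGFBR1, TGFBR2, TXN, TXNRD1, WFDC2 and YARS1 had further probe sets, none of which was called.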

How the data were processed

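RNA of BEAS-2B cells expressing NΔ42, RR or WT APE1 was hybridised to Affymetrix HG-U133 Plus 2.0 arrays. The deposited table holds log2 values that the authors obtained by RMA, which corrects background, quantile-normalizes across arrays and summarizes probe sets. RMA shrinks differences of dim probe sets and gives no detection call. The submitters' notes name affy and limma, without a version. The authors' comparison tables hold log2 fold changes and p-values, which were not used.

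Of 54675 probe sets, 62 controls were left out. The other 54613 were fitted with limma 3.58.1 (R 4.3.3) on the 9 BEAS-2B arrays with 1 mean per construct, lmFit and eBayes, and p-values were adjusted by Benjamini-Hochberg over all of them. By the annotation, 41091 probe sets have 1 symbol, 1801 several and 11721 none, and the first gave 19775 genes, each read at the probe set with the highest mean. Intervals and standard errors rest on 3 arrays per construct and on 1 spread per probe set. That spread was pooled over the 9 BEAS-2B arrays and moderated over probe sets by eBayes. The intervals of NΔ42 minus RR therefore also carry the spread of the WT arrays. The fit was tested on simulated data. Gene lists and members were chosen with earlier results of these data known. Named genes are the 15 largest called falls and rises with groups that did not overlap, list and marker members where their list is described, the RT-PCR genes, HPRT1 and APEX1. CLECL1, CCDC187 and MUC5AC were named after their values were seen. Alternatives changed the arrays fitted, the block, the normalization, the filter, the moderation, the gene summary and the thresholds.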

Additional observations from a re-analysis of the deposited data

Results flagged for a closer look

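Of the 11721 probe sets with no gene symbol in the annotation table, which enter none of the counts above, 575 (4.91%) were called between NΔ42 and WT cells, 291 higher and 284 lower in NΔ42 cells, and 30 of them differed by at least 2-fold. Among the 1801 probe sets with several symbols 279 (15.5%) were called, 149 higher and 130 lower.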

How the results depend on the processing

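Without 1 array in turn, between 3042 (without NΔ42 replicate 1) and 3624 (without WT replicate 2) genes were called between NΔ42 and WT cells. With all 21 arrays of both cell lines in 1 fit 2293 genes were called, with no minimum fold 5290 and with a 2-fold minimum 260. Counting a gene as called at any of its probe sets gave 4682 genes, and averaging its probe sets 2470. The remaining settings kept the count within 1.5 times the 3518 reported. Without 1 array, calls were lost at UNG (NΔ42 replicate 3 or WT replicate 3), MBD4 (NΔ42 replicate 1), MPG (NΔ42 replicates 1 or 3, WT replicates 1 or 3), BCL2 (NΔ42 replicates 1 or 2, WT replicates 1 or 3) and PECAM1 (any but NΔ42 replicate 2), besides those given with their values. Of 192 called genes named here 55 were no longer called with all 21 arrays and 23 with averaged probe sets, under which PSPH turned to -0.083 and was not called. The counts of members called in the gene groups moved by over 1.5 times in 59 instances and not in 829. These counts were not taken with all 21 arrays in 1 fit, with a minimum level, with other thresholds or at any probe set. With averaged probe sets 7 G1 regulators were higher, against 12 reported, 4 cholesterol and fatty acid genes against 10, 2 TGF-beta and BMP genes against 7, 2 NF-kB genes against 4 and 1 HMG or chromatin gene against 4. In that setting 5 glycolysis and hypoxia genes were lower, against 8, and in the BCL2 family and death receptors 1 was higher and 4 lower, against 3 and 1. Base excision repair had 2 higher members with quantile normalization and 3 without NΔ42 replicate 1, NΔ42 replicate 3 or WT replicate 3, against 5. Mitosis had 5 with arrays centred on the median, against 2. The counts of lower amino acid response, tRNA synthetase, ERK feedback, interferon and cytokine genes stayed within 1.5 times in the settings counted. Those of higher collagen and matrix, complement, MHC class I and replication genes did too. With all 21 arrays the calls lost included AARS1, GARS1, IARS1, TARS1 and YARS1 of the synthetases, and ATF4, SPRY2 and IL6. For APEX1 the difference ranged from -0.45 without WT replicate 3, where it was called, to 0.015 without WT replicate 2.

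Between NΔ42 and RR cells 3 genes were called with trend and robust moderation, 2 with averaged probe sets, 224 at an unadjusted p under 0.01, and 0 to 451 without 1 array, the 451 without RR replicate 3. The deviations of same-numbered NΔ42 and WT arrays from their group means correlated at 0.0891, -0.0331 and 0.0994. Differently numbered NΔ42 and WT arrays gave -0.174 to 0.115. Same-numbered RR and WT arrays gave 0.143, 0.0932 and 0.0516, and differently numbered ones -0.096 to 0.0279. Same-numbered RR and NΔ42 arrays gave 0.201, -0.0311 and 0.0398, and differently numbered ones -0.234 to 0.247. Such values cannot settle whether same-numbered arrays were prepared together, which was not tested. With the replicate number as a block 3557 genes were called between NΔ42 and WT cells, 0 between NΔ42 and RR cells, and APEX1 kept its difference of -0.17 (adjusted p = 0.571). The causes of these shifts were not tested. With no detection call, differences of dim probe sets cannot be bounded.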
